A study of Mus musculus with 2 samples.

Results

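The binding of Rfx6 was examined at the 8 mouse SMAD genes (Smad1, Smad2, Smad3, Smad4, Smad5, Smad6, Smad7 and Smad9) among the 22367 protein-coding genes of the annotation (GENCODE M1 on NCBIM37/mm9). The genes were taken by name. A peak was counted for a gene when its summit, the position of highest signal, lay in the gene or within 50 kb of either end, and 24 of the 23308 peaks of the list were counted in this way. Anti-HA (12CA5) ChIP-seq had been performed in Min6b1 cells, a mouse pancreatic β cell line, transfected with 24 µg of the plasmid pCMV-Tag2A-3HA-Rfx6. This plasmid makes Rfx6 carrying a short tag (3HA), from a CMV promoter. Cells labelled only as Min6b1 cells, treated with the same antibody, served as control, and they entered here through the peak calling of the authors alone. The growth protocol given for the control repeats that of the transfected cells, so the labels leave unclear whether the control was transfected, and with it what the fold enrichment is relative to. There was 1 library of each, so no value below has a replicate error and no test between conditions was possible. Peaks come from transfected Rfx6 in a cell line, and expression of the SMAD genes was not measured in these 2 libraries.

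SMAD proteins carry signals of the TGF-β family from receptors at the membrane to genes in the nucleus. Smad2 and Smad3 are activated by TGF-β and activin receptors, whereas Smad1, Smad5 and Smad9 are activated by BMP receptors. Smad4 is the partner that joins either kind, and Smad6 and Smad7 are inhibitors of the pathway. Smad3 is one of the disallowed genes, which most tissues express and mature β cells repress, and it is set below beside the other 7 SMAD genes. Rfx6 is a winged-helix factor of the RFX family, whose members recognise the X-box, a pair of short inverted repeats.

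Rfx6 peaks were present at 7 of the 8 SMAD genes, and 67.8% of all protein-coding genes had a summit within the same distance. That share is not matched for gene length, with which the searched window grows. It was 78.6% among genes of at least 100 kb, a length that only Smad3 of the SMAD genes reaches. Smad3 held 10 summits, Smad6 had 4, Smad5 and Smad7 had 3 each, Smad4 had 2, Smad1 and Smad9 had 1 each and Smad2 had 0. Of the 24 summits, 12 lay inside a SMAD gene, 9 lay upstream and 3 lay downstream. The peak with the most reads was not at Smad3 but 8.77 kb upstream of Smad5, with 300 reads. It lay in sequence that consists in part of short repeated units. Apart from it, the most reads were in a peak of Smad3, with 211. The list gives for each peak the count of reads in it and the fold enrichment over the background that the peak caller expects from the control and the surroundings. Over all peaks the median was 73 reads and 8.54-fold, and the lowest count in the list was 24 reads. The library had 33949757 reads after removal of duplicates, against 3567375 in the control, so the background rests on the shallower library. The FDR of the 24 peaks was between 1.79% and 7.2%, and its median over all peaks was 3.06%. The highest value belonged to the Smad5 peak of 300 reads and the lowest to a Smad3 peak of 31 reads. A low FDR therefore did not mark the stronger of these peaks.

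**Figure D1:**
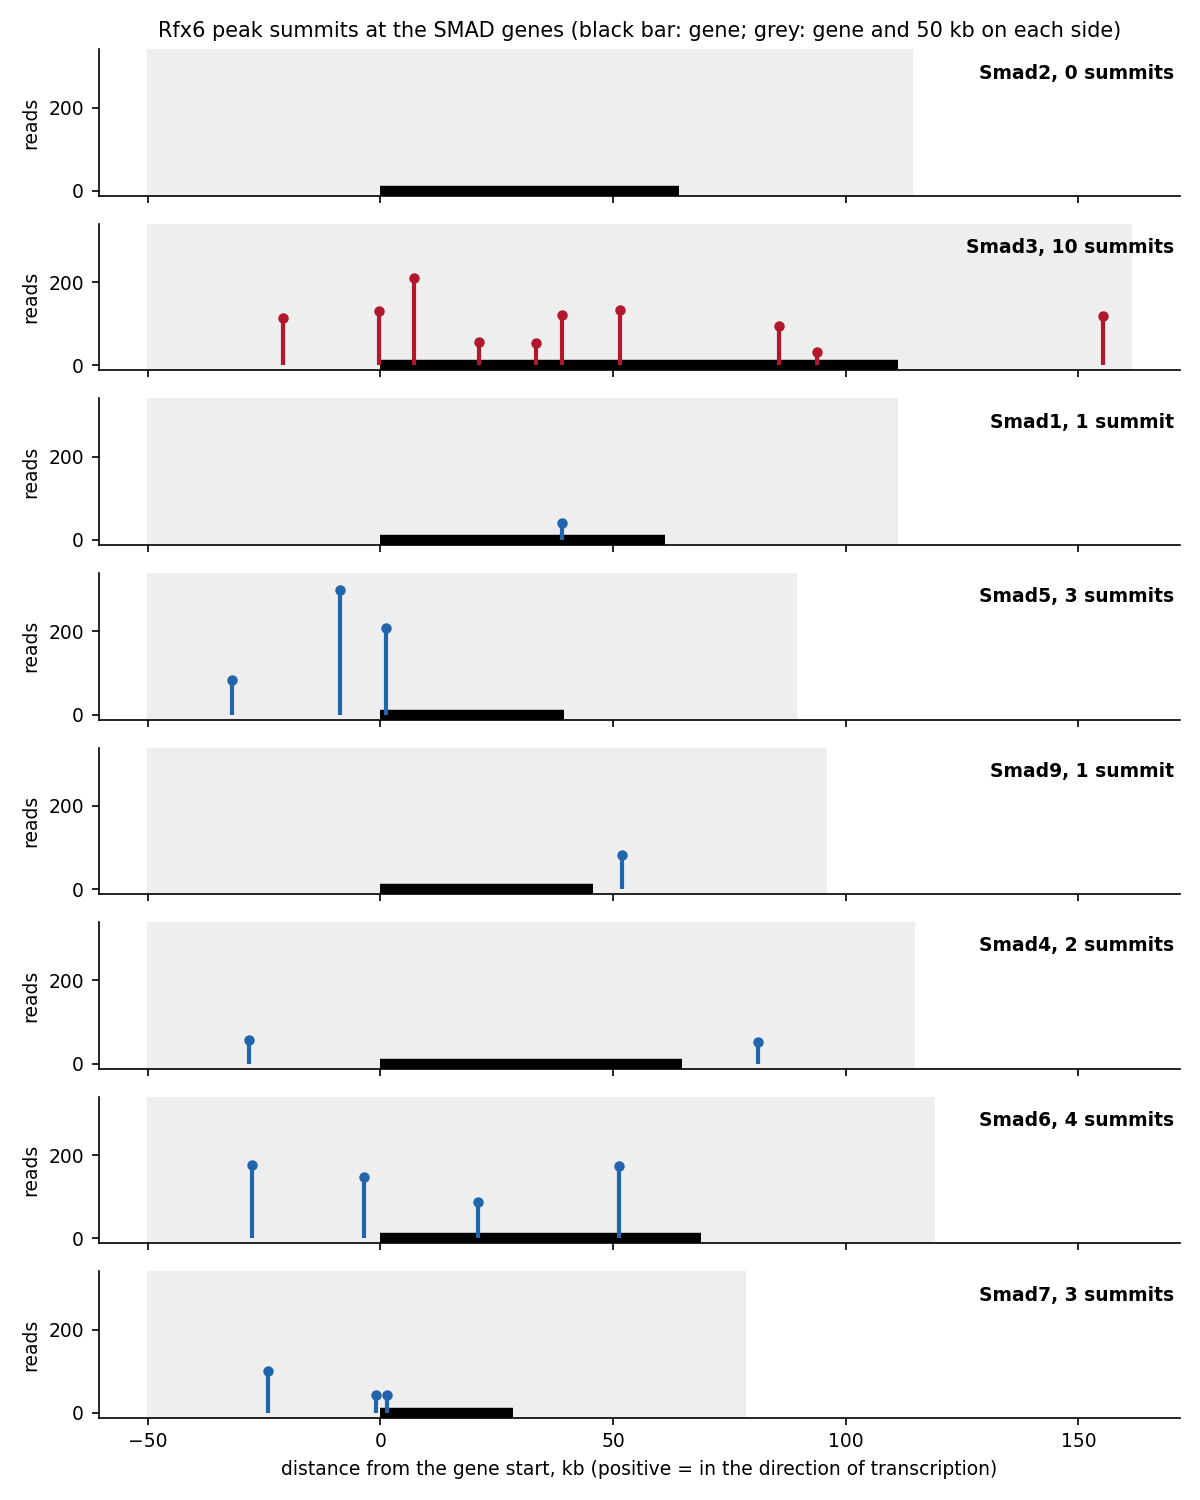
Reads in each Rfx6 peak (vertical axis) against the distance of its summit from the start of the gene in kb (horizontal axis, positive in the direction of transcription) for the 8 SMAD genes, with the gene as a black bar and the searched window in grey. The 10 summits of Smad3 are spread along the gene and beyond both ends, whereas Smad2 has 0.

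The sequences below, 150 bp around the summit on the plus strand of mm9, show what lies under the peaks that the results turn on. Capitals mark a strict X-box or one of its 6-base arms (GTTGCC or GTTACC, or the related GTTGCT or GTTACT, on either strand), and a sequence in lower case throughout holds none of them in the letters shown. The first group holds the peaks at the start of Smad3, in its first intron with the most reads, and in the same intron with a strict X-box.
Smad3, 0.253 kb upstream of the start, chr9:63605979-63606128: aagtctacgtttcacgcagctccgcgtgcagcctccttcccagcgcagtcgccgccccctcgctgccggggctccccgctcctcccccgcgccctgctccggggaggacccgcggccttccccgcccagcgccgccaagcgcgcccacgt
Smad3, intron 1, 7.27 kb after the start, chr9:63598459-63598608: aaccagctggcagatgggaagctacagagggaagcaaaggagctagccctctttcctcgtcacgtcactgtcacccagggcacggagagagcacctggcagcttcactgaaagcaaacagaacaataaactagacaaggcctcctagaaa
Smad3, intron 1, 33.3 kb after the start, chr9:63572388-63572537: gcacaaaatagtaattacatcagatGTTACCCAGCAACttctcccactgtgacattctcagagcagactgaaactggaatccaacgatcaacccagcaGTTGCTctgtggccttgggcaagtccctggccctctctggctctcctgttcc
The second group holds 3 peaks of Smad6, the one with the other strict X-box, the one with the highest fold enrichment and one with a single arm near the summit.
Smad6, intron 3, 21.0 kb after the start, chr9:63848747-63848896: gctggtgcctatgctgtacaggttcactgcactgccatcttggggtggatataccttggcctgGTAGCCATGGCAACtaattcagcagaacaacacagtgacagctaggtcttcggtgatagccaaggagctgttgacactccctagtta
Smad6, 3.61 kb upstream of the start, chr9:63873398-63873547: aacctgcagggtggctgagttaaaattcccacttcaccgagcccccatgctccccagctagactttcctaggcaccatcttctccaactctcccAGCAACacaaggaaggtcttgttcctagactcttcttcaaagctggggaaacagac
Smad6, intron 3, 51.3 kb after the start, chr9:63818526-63818675: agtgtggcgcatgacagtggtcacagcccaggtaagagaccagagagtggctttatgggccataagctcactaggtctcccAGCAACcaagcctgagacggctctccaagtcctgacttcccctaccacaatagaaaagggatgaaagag
The third group shows the 3 peaks of Smad5, of which the one 31.9 kb upstream consists of short repeated units, the one 8.77 kb upstream does so in part and the intronic one does not.
Smad5, 8.77 kb upstream of the start, chr13:56795528-56795677: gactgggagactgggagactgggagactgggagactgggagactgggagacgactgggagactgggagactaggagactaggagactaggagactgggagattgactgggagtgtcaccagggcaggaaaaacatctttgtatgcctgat
Smad5, 31.9 kb upstream of the start, chr13:56772357-56772506: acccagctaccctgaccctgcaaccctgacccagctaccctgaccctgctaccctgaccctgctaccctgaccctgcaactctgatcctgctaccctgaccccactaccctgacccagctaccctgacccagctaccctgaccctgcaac
Smad5, intron 1, 1.14 kb after the start, chr13:56805440-56805589: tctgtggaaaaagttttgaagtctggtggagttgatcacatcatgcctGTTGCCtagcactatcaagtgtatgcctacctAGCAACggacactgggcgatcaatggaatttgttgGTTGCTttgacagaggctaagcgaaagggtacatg

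Smad3 (ENSMUSG00000032402.6) (chromosome 9, 63494574 to 63605801, minus strand) is, with 111 kb, the longest of the SMAD genes. Of its 10 summits, 7 were inside the gene, 2 upstream and 1 downstream, and each of the 7 was intronic. The peak at the start of transcript Smad3-001 had its summit 0.253 kb upstream of it and held 130 reads, a 13.5-fold enrichment. The peak with the most reads, 211, was enriched 22.1-fold and was in intron 1, 7.27 kb after that start and 0.35 kb after the start of the shorter transcript Smad3-004. Of all peaks in the list, 7.01% held at least as many reads. Both of these annotated starts of Smad3 thus had a summit within 1 kb.

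Intron 1 of Smad3 held 5 further summits. The peak at 51.6 kb after the start held 133 reads and was enriched 19.3-fold. It was followed by the peak at 39.0 kb, with 120 reads and 16.0-fold enrichment, and by the peak at 85.6 kb, with 95 reads and 7.53-fold enrichment. The peaks at 21.1 kb and 33.3 kb were lower, with 57 and 53 reads and enrichments of 5.88-fold and 9.18-fold. In intron 4, at 93.8 kb, lay the lowest peak of all 24, with 31 reads and 4.24-fold enrichment, and 99.7% of all peaks held at least as many reads. Outside the gene, a peak 21.0 kb upstream held 113 reads (12.9-fold). Neighbouring summits were 5.71 to 61.4 kb apart, with a median gap of 12.5 kb.

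The downstream peak of Smad3, 44.0 kb beyond its end, held 119 reads (10.3-fold). Its summit was 135 bp after the start of Aagab. It is therefore counted for Smad3 by distance while it lies at the start of another gene. With each peak given only to the nearest gene, Smad3 kept 9 summits. Just outside the limit, 55.2 kb downstream of Smad3 and within Iqch, was a peak of 339 reads, enriched 26.9-fold, which exceeds each of the counted peaks of Smad3 in both measures.

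Smad2 (ENSMUSG00000024563.9, chromosome 18, 76401234 to 76465385, plus strand), the other mediator of TGF-β and activin signals, had 0 summits within 50 kb, a count whose 95% Poisson interval reaches 2.25 summits per 100 kb. Of all protein-coding genes, 32.2% had 0 as well. Its nearest summit was 90.5 kb upstream, where 32 reads gave an enrichment of 4.47-fold. Regions that missed the p-value cutoff of the authors are not in the list, so the list does not show whether there was weaker binding at Smad2.

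Among the SMAD genes of the BMP branch, Smad5 had the highest peaks and Smad1 and Smad9 had 1 peak each. Smad5 (ENSMUSG00000021540.9, chromosome 13, 56804371 to 56843738, plus strand) had its peak of 300 reads 8.77 kb upstream of the start. That peak was enriched 36.7-fold, and 2.52% of all peaks held at least as many reads. A peak of 209 reads (19.8-fold) lay in intron 1, 1.14 kb after the start of Smad5-001 and 486 bp after that of Smad5-003. The third, 31.9 kb upstream, held 82 reads (8.0-fold). The peaks of Smad5 thus lay at and before its start, with 0 summits in the rest of the gene or downstream of it. With each peak given only to the nearest gene, Smad5 kept 2 summits.

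Tandem repeats made up much of the 200 bp around both upstream summits of Smad5, and the peak of 300 reads also had sequence without them, as its printed end shows. When each base was compared with the base a fixed number of positions before it (2 to 60), the best match reached 89.0% at a period of 28 bp for the peak at 31.9 kb. It reached 58.9% at a period of 8 bp for the peak of 300 reads. The other 22 SMAD peaks reached 43.7% at most, and the median over all peaks was 34.5%. A match of at least 50%, a limit set after these sequences had been seen, was found in 3.15% of all peaks. Reads from other copies of such units cannot be told apart from reads of the place itself in a peak list, and whether this raised the counts was not tested. Without these peaks, Smad5 had 1 summit and the 7 genes other than Smad3 had 1.12 summits per 100 kb.

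Smad1 (ENSMUSG00000031681.8, chromosome 8, 81862294 to 81923417, minus strand) had its single peak in intron 2, 39.1 kb after the start, with 41 reads (5.18-fold). Smad9 (ENSMUSG00000027796.2, chromosome 3, 54559504 to 54605179, plus strand) had 0 summits inside the gene. The peak counted for it held 81 reads, was enriched 7.53-fold and lay 6.17 kb beyond its end. The summit was in a coding exon of the next gene, Rfxap, 362 bp after its start. Rfxap encodes a subunit of the RFX complex that binds X-boxes of MHC class II genes. With peaks given only to the nearest gene, Smad9 had 0.

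Smad4 (ENSMUSG00000024515.7, chromosome 18, 73798663 to 73863434, minus strand), the common partner, had 0 summits inside the gene. One peak was 28.2 kb upstream, with 57 reads (7.18-fold), and another was 16.3 kb downstream, with 51 reads (4.71-fold). Both counts are below the median of all peaks. The nearest annotated start was that of Elac1 for the former and of Mex3c for the latter. The upstream summit, at 73891683, was also nearer to the body of Elac1 (73894692 to 73914133) than to Smad4. With each peak given only to the nearest gene, Smad4 kept 1 summit.

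The inhibitory SMAD genes both had peaks near their start, but of different height. At Smad6 (ENSMUSG00000036867.5, chromosome 9, 63800953 to 63869866, minus strand) a peak 3.61 kb upstream of the start held 147 reads and was enriched 27.3-fold, and one 27.7 kb upstream held 177 reads and was enriched 20.7-fold. In intron 3, the peak 51.3 kb after the start held 173 reads (9.64-fold), and the peak at 21.0 kb held 87 reads (10.6-fold). All 4 counts are above the median of all peaks. At Smad7 (ENSMUSG00000025880.5, chromosome 18, 75527183 to 75555589, plus strand) the start was flanked by a peak 0.874 kb upstream with 42 reads and a peak 1.39 kb after it with 44 reads, enriched 4.71-fold and 6.12-fold. The former also lay inside another annotated gene, RP24-263P17.1 (a processed transcript). The latter lay in exon 1 of Smad7-001, 38 bp after the start of Smad7-201. The highest peak of Smad7 held 101 reads (11.3-fold) and was 24.2 kb upstream.

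Smad3 and Smad6 are neighbours on chromosome 9 with 195 kb between them, and they are transcribed in the same direction. Within this interval were 3 summits, of which 2 are the upstream peaks of Smad3. The remaining one lay 105 kb upstream of Smad3 and 90.1 kb downstream of Smad6, outside both windows, with 136 reads (4.6-fold).

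When summits were counted per length of gene plus 50 kb on each side, Smad3 had 4.73 summits per 100 kb (10 in 211 kb). The exact Poisson 95% interval, which covers counting error only and takes peaks as independent, was 2.27 to 8.71. The other 7 genes together had 1.31 per 100 kb (0.714 to 2.19, 14 summits in 1072 kb). The rate of Smad3 was 3.63 times that of the others. Because Smad3 was singled out with its count known, the difference is a description and was not tested. In descending order the others had 2.37 (Smad6), 2.34 (Smad7), 2.15 (Smad5), 1.21 (Smad4), 0.686 (Smad9), 0.621 (Smad1) and 0 (Smad2) summits per 100 kb, and the intervals of neighbours in this order overlapped throughout. Of all protein-coding genes, 2.87% had at least as many summits as Smad3 and 10.6% had at least as many per 100 kb. Among the 2401 genes of at least 100 kb, these shares were 8.25% and 3.71%. Inside the genes alone, Smad3 had 6.29 summits per 100 kb (7 summits) and the other 7 had 1.34 (5 summits). The shares of all genes above are for the windows, and none was computed for the genes alone.

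**Figure D2:**
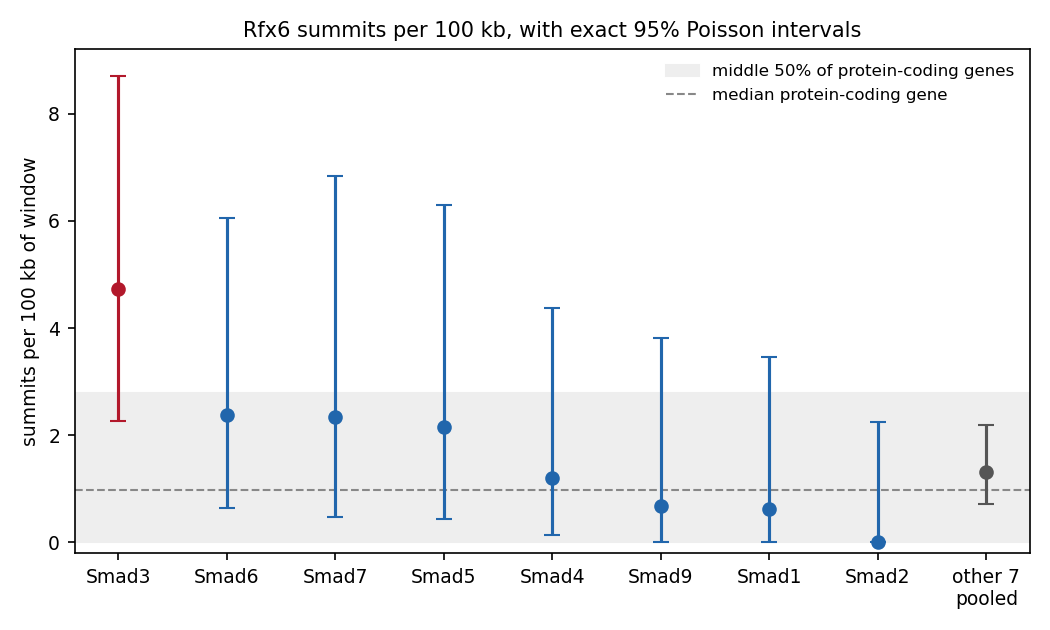
Summits per 100 kb of gene plus flanks (vertical axis) for each SMAD gene and for the 7 genes other than Smad3 pooled, as points with exact 95% Poisson intervals. The grey band and dashed line are the middle 50% and the median (0.976) of all protein-coding genes, and Smad3, at 4.73, lies above that band.

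This order depends on the distance. With 100 kb on each side, Smad5 had 11 summits, or 4.6 per 100 kb, and Smad3 had 11, or 3.53 per 100 kb, so that Smad5 came first. The 8 summits added at Smad5 comprise 6 upstream, of 45 to 236 reads, which lay in or next to Tgfbi, and 2 downstream, of 77 and 137 reads, which lay in Trpc7. Tgfbi encodes an extracellular matrix protein that is induced by TGF-β. With 20 kb on each side or with the gene alone, Smad3 had the highest rate of the 8 genes.

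The heights of the peaks overlapped between Smad3 and the other SMAD genes. The peaks of Smad3 held 31 to 211 reads, with a median of 116. Those of the other genes held 41 to 300 reads, with a median of 84.5. The highest, of 300 reads, is 1 of the 2 Smad5 peaks with tandem repeats, and the next highest of the other genes held 209. The median fold enrichment was 11.6 for the peaks of Smad3 and 8.82 for the 14 others. At least 73 reads, the median of all peaks, were held by 7 of 10 peaks of Smad3 and by 9 of 14 of the others. The summed reads of the 24 peaks were 2654, of which 40% were at Smad3, which had 41.7% of the summits and 16.5% of the searched sequence. By gene, the summed reads per 100 kb were 503 for Smad3, 424 for Smad5, 346 for Smad6 and 146 for Smad7, and at most 65.5 for the rest. The value of Smad5 rests largely on its peaks with tandem repeats, which held 300 and 82 of its 591 reads. It was not computed without them.

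**Figure D3:**
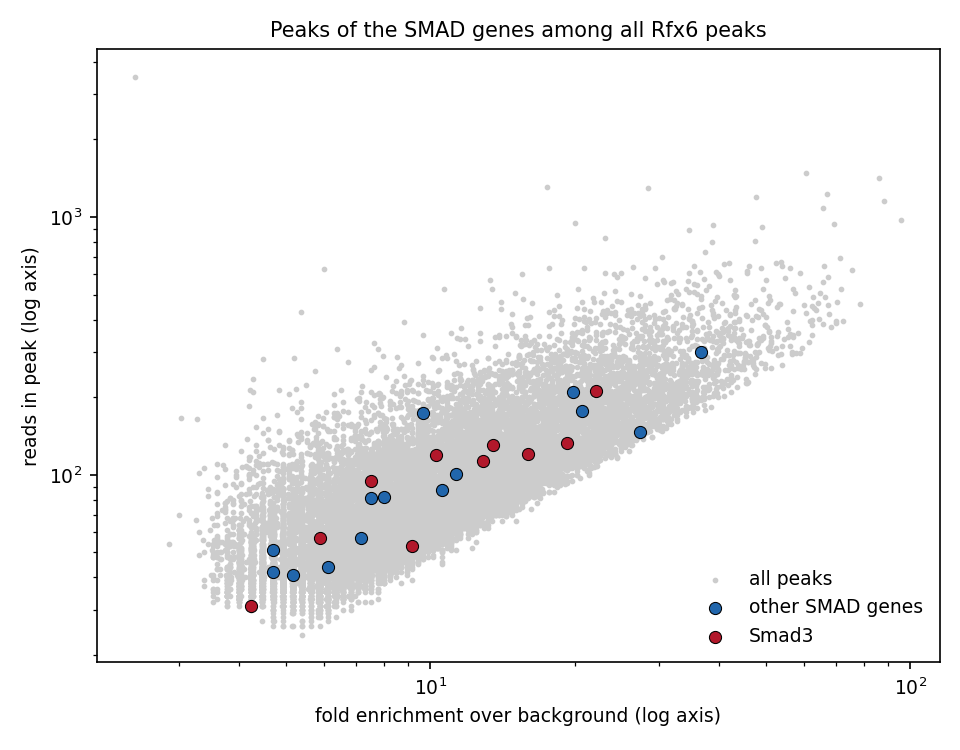
Reads in the peak (vertical, log axis) against fold enrichment (horizontal, log axis) for all 23308 peaks in grey, the 10 peaks of Smad3 in red and the 14 peaks of the other SMAD genes in blue. The peaks of the SMAD genes, from 31 to 300 reads, lie within the cloud of all peaks, and the blue point with the most reads is the one upstream of Smad5.

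The strict X-box, 2 arms with 0 to 3 bases between them, was present in the 200 bp around 2 of the 24 summits (8.33%, 95% Wilson interval 2.32 to 25.8%). The share was 6.42% over all peaks and 0.253% in windows 1 kb to the right of all summits. One was in intron 1 of Smad3, at 63572413 to 63572425, 38 bp from the summit of the peak of 53 reads. The other was in intron 3 of Smad6, at 63848810 to 63848823, and it covered the summit of the peak of 87 reads. Neither was among the higher peaks of its gene. An arm of the form GTTGCC or GTTACC, on either strand, was found at 7 of the 24 summits and at 35.7% of all. With GTTGCT and GTTACT added, forms chosen after the sequences had been seen, 14 of 24 had an arm (58.3%), against 60.9% of all peaks and 24.6% of the windows 1 kb to the right. Both shares of the SMAD peaks are near those of the whole list. The X-boxes of Smad3 and Smad6 each hold at least 1 of these 4 forms, so the motifs overlap.

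The distance from the summit to the nearest arm varied between the genes. An arm covered the summit of 2 Smad6 peaks, that with the X-box and that 27.7 kb upstream (GTTGCT), and lay 6 bp from the summit of the Smad6 peak of 173 reads and 19 bp from that of 147 reads. The Smad5 peak of 209 reads had GTTGCT at 5 bp, and the Smad1 peak had GTTGCC at 4 bp. In Smad3 the distances were 1 bp for the peak 21.0 kb upstream, 10 bp for the peak at Aagab, 11 bp for the peak in intron 4, and 23, 57 and 50 bp for the peaks of intron 1 at 33.3, 39.0 and 85.6 kb. The remaining 4 peaks of Smad3, of 211, 133, 130 and 57 reads, held none of the 4 forms in the 200 bp window, nor did the Smad5 peak of 300 reads. GTTGCT was also present at the Smad4 peak upstream and the Smad7 peak in exon 1. The absence of these letters says nothing else about the factor.

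Of the 24 summits, 7 (29.2%) were at most 1 kb from where a protein-coding transcript starts, and 21.0% of all peaks were. Of these 7, 5 were at a start of a SMAD gene, namely 2 each at Smad3 and Smad7 and 1 at Smad5, and the others were at Aagab and Rfxap. The G+C content of the 200 bp windows ranged from 40% to 78% with a median of 53.5%, against 54% for all peaks. The highest, 78%, was at the start of Smad3-001, whose window also held 27 CpG, whereas the Smad3 peak with the most reads had 52% and 4 CpG.

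The genes of the TGF-β pathway around the SMAD proteins were examined in the same way. A summit within 50 kb was present at 10 of 14 ligand genes, 9 of 13 receptor genes and 12 of 13 genes of intracellular regulators, or 77.5% of the 40, beside 67.8% of all genes. These shares were not matched for gene length. The median rates were 1.82, 1.71 and 1.4 summits per 100 kb, that of the 8 SMAD genes was 1.68, and that of all genes was 0.976. Among the ligands, Bmp6 had 12 summits, Bmp7 had 9 and Inha, the inhibin α subunit, had 8, although 0 of the latter were inside the gene. Among the receptors, the activin receptors Acvr1b (ALK4) and Acvr2b had 8 and 7, of which 1 and 3 were inside the gene, and the coreceptor Tgfbr3 had 7. Of the relatives of these activin receptors, Acvrl1 had 2, Acvr2a had 1 and Acvr1 and Acvr1c had 0. The type I receptor of TGF-β, Tgfbr1, had 0, whereas the type II receptor Tgfbr2 had 4. Among the regulators, Ski, which represses SMAD-driven transcription, had 13, Foxh1, a DNA-binding partner of Smad2 and Smad3, had 11 with 0 inside the gene, and Nedd4l had 6. Set against the length of the window, Ski had 7.71 summits per 100 kb, Tgfbr3 had 2.47 and Nedd4l had 1.4, the median of the regulators. Rates above that of Smad3 were found at 6 of the 40 genes, and 10.6% of all protein-coding genes had at least the rate of Smad3. Of the disallowed genes, only the 10 others named by both earlier surveys of such genes were examined. A summit within 50 kb was present at 6 of these 10 (60%), beside 67.8% of all genes. The 10 genes had 0 to 4.17 summits per 100 kb, with a median of 1.23. None of these 10 had the rate of Smad3, a count that at 10.6% of all genes is near the background.

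**Figure D4:**
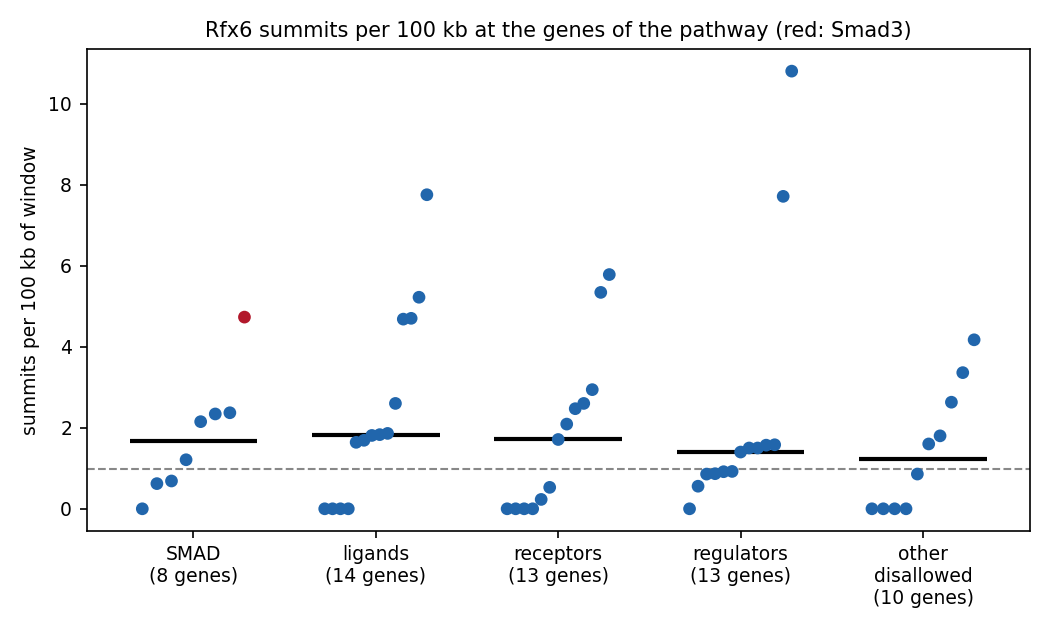
Summits per 100 kb of gene plus 50 kb on each side (vertical axis) for the SMAD genes, the ligands, receptors and intracellular regulators of the TGF-β family and 10 other disallowed genes (those named by both earlier surveys), 1 point per gene in ascending order, with the group median as a black bar and the median of all protein-coding genes as a dashed line. Smad3 (red, 4.73) lies above the other SMAD genes and above these 10 disallowed genes, while 6 genes of the pathway lie higher, the highest being Foxh1 at 10.8.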

How the data were processed

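Anti-HA ChIP-seq of 3HA-Rfx6 transfected Min6b1 cells was analysed from the peak list the authors deposited, with 1 library per condition and single-end reads of 50 bases. Per the labels, the submitters' processing notes name CASAVA 1.8.2, Bowtie, MACS 1.4.2 and mm9. MACS kept 1 read per position (33949757 of 49443917 reads of the 3HA-Rfx6 library and 3567375 of 16911298 control reads) at a p-value cutoff of 1e-05. Each deposited peak has a read count, not normalized, a fold enrichment (a ratio of reads to the local background expected), a score (minus 10 log10 of p) and an FDR in percent, for which ChIP and control were exchanged.

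Summits (start plus offset minus 1) were placed on GENCODE M1 genes, without mitochondrial genes, and counted within 50 kb. Sequences were read from NCBIM37. Members and lists were chosen with earlier results of these data known. The genes named beside the members are the 3 with the most summits among the ligands, receptors and regulators each, and genes at or nearest to a member's summit. The other disallowed genes are given as a group only. Tgfbr1, Tgfbr2, Acvrl1, Acvr2a, Acvr1, Acvr1c, Tgfbi, Trpc7 and Iqch were named after their values had been seen. Python 3.11.15 was used with scipy 1.17.1, pandas 2.3.3, numpy 2.4.6 and matplotlib 3.10.9, and the counting and motif search were checked on simulated data.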

Additional observations from a re-analysis of the deposited data

How the results depend on the processing

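The alternatives tried were windows of 20 and 100 kb, the gene alone, the top 50% of scores, at least 10-fold enrichment, any overlap of a peak in place of its summit, the nearest gene only, and 100 or 400 bp around the summit for the X-box. Peaks without tandem repeats and the 4 arm forms were added after seeing the data. At 10-fold enrichment or more, 4 of the 8 SMAD genes kept a summit (Smad3, Smad5, Smad6 and Smad7), Smad3 had 6 and the other 7 genes had 0.559 per 100 kb. The share of all protein-coding genes at that enrichment was not counted, so whether 4 of 8 is high or low is not known. A strict X-box remained at 1 summit at that enrichment, as it did in the top 50% of scores. With the arms GTTGCC and GTTACC in place of the strict X-box 7 summits matched, and with 4 forms 14. Among these alternatives, the rate of Smad3 was the highest of the SMAD genes in all but the window of 100 kb, where Smad5 came first. Leaving out the summits in tandem repeats removed 2 of Smad5. No paired analysis was possible because each condition has a single library, and no replicate could be left out. The lowest count in the list, which was made with a p-value cutoff, was 24 reads, and the effect of depth was not tested.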
